A study of Drosophila melanogaster with 9 samples.

Results

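The genes described here are 9 genes of DNA replication control in the larval fat body of Drosophila melanogaster, taken by their symbols from a table of 10372 genes. They are the 6 subunits of the MCM2-7 helicase (Mcm2, Mcm3, dpa, Mcm5, Mcm6 and Mcm7, dpa being the Mcm4 subunit), the sliding clamp PCNA (mus209), cyclin E (CycE) and the transcription factor E2F1 (E2f). All 9 were found in the table. The rule that picks them uses no measured value, but they were chosen with earlier results of these data known. The genes lie on 3R (Mcm2, Mcm5 and E2f), X (Mcm3 and Mcm6), 3L (Mcm7), 2L (CycE) and 2R (dpa and mus209).

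Most larval fat body cells do not divide. They grow by endoreplication, repeated rounds of DNA synthesis without mitosis, which in feeding larvae depends on nutrition and on insulin and TOR signalling. In each round the MCM2-7 ring is loaded onto origins while cyclin E-Cdk2 activity is low, and rising cyclin E-Cdk2 activity then starts synthesis. E2F1 with its partner Dp switches on genes of DNA synthesis and CycE, is destroyed during S phase and is made again afterwards.

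RNA-seq libraries had been made from fat bodies of feeding female larvae in the third instar, about midway through it, from total RNA depleted of ribosomal RNA, with 3 libraries in each of 3 groups. All larvae had hs-GAL4 mothers, whose driver makes the activator GAL4 after heat and is not restricted to the fat body. In InRCA_HS, the fathers came from stock 8263, which carries UAS-InR.A1325D, a constitutively active insulin receptor that GAL4 switches on, and the larvae were heated to 37 °C for 30 min. In InRCA_noHS, larvae of the same cross were moved to a new vial without heat and reared at 25 °C. In control_HS, the fathers came from stock 6598 (y1w1118), which lacks the transgene, and the larvae were heated in the same way. Fat bodies were collected 6 h later by shearing and centrifugation. Separate cultures are not stated for the 3 libraries of a group, so p-values here measure the spread between libraries, which may be technical. Unheated larvae of the control cross were not analysed here, so the cross and the heat cannot be told apart in InRCA_noHS against control_HS. The RNA of the receptor gene InR differed between those groups too, as given below. Heat and receptor differ together between InRCA_HS and InRCA_noHS, and transgene and paternal stock between InRCA_HS and control_HS.

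The deposited values are called adjusted counts here. That they are read counts adjusted between libraries was inferred from the values, and their totals still ran from 10625545 to 15514912 per library. Whole reads recovered from them summed to between 8752142 and 17599463 per library. The transgene's own gene, InR, served as the check of the labels. Its mean was 785 ± 41.8 with control_HS, 2537 ± 986 with InRCA_noHS and 58290 ± 9630 with InRCA_HS (SD, n = 3 in each group, as for each group mean below). InR was thus raised without heat too, 3.085-fold in InRCA_noHS against control_HS, and was called there by the test described below. On the first principal component of all genes InRCA_HS replicate 3 (−12.2) lay nearest to control_HS replicate 1 (−14.8), whose fellow libraries were at −55.6 and −37.7, and results that turn on control_HS replicate 1 are also given without it. All 8 fat body markers were in the table. They summed to 3619978 to 4070414 adjusted counts for control_HS, 2612667 to 3931931 for InRCA_noHS and 2626970 to 3424730 for InRCA_HS. In these sums control_HS lay above InRCA_HS without overlap. The sums are not shares of library totals, which ran from 11708204 to 15514912 in control_HS and from 10625545 to 12145829 in InRCA_HS. In InRCA_HS against control_HS 6 of the 8 were below 0 in log2 difference, with a median of −0.47, and 0 were called. Their part in the results below was not tested. Of 6 hemocyte markers 4 were in the table, of 8 markers of imaginal discs and the nervous system 7, and of 5 germ line markers 2. Fewer cells of a type and less RNA per cell cannot be told apart in such bulk samples.

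None of the 9 replication genes passed the test in any comparison, although InRCA_HS exceeded control_HS 73.5-fold in InR itself (adjusted p = 6.87e-07, limma). The test was limma on log2(adjusted count + 1) with Benjamini-Hochberg adjustment over all 10372 genes and a threshold of 0.05. In InRCA_HS against control_HS, 0 of 9 were called against 2.43% of all genes, in InRCA_HS against InRCA_noHS 0 of 9 against 2.55%, and in InRCA_noHS against control_HS 0 of 9 against 7.03%. At an unadjusted p under 0.05 the numbers were 1 (Mcm3), 0 and 0, against 18.3%, 14.8% and 23.7% of all genes. In InRCA_noHS against control_HS the libraries overlapped for all 9, while 27.5% of all genes had groups that did not overlap. The quasi-likelihood test of edgeR on recovered reads also called 0 of the 9 in each comparison, with 0 below an unadjusted p of 0.05. A count of 0 calls among 9 is near these shares and says little about the 9 as a set.

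The MCM subunits are the most alike of these genes in role, because the ring holds 1 copy of each. Mcm3 had the largest difference between groups. The control_HS libraries held 415, 396 and 434 adjusted counts of it, the InRCA_noHS libraries 323, 474 and 445, and the InRCA_HS libraries 227, 371 and 321. The 3 InRCA_HS libraries thus lay below all 3 control_HS libraries but overlapped InRCA_noHS, whose replicate 1 was lower than InRCA_HS replicate 2. Mcm3 was 0.724 times its control_HS level in InRCA_HS (log2 difference −0.47, SE 0.21, 95% interval −0.93 to −0.00135, adjusted p = 0.271, limma). Against InRCA_noHS the ratio was 0.735 (log2 difference −0.44, SE 0.21, adjusted p = 0.360). The log2 difference from control_HS was −0.27 without InRCA_HS replicate 1 and −0.62 without InRCA_HS replicate 2, and neither passed. Mcm3 was the 1 gene of the 9 whose InRCA_HS and control_HS libraries did not overlap, against 20.6% of all genes.

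The Mcm4 gene dpa had its lowest mean in InRCA_noHS, unlike the other 5 subunits. Adjusted counts were 340.4, 435 and 342 for the control_HS libraries, 346, 341 and 314.5 for InRCA_noHS, and 369, 409.9 and 355 for InRCA_HS. Each InRCA_HS library lay above each InRCA_noHS library, and dpa was the 1 gene of the 9 whose libraries did not overlap in that comparison, against 23.3% of all genes. The log2 difference was 0.18 (SE 0.15, 95% interval −0.16 to 0.52, adjusted p = 0.642, limma), so the test did not call the gap. Against control_HS the log2 difference was 0.03 (SE 0.15, adjusted p = 0.948).

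Mcm2, Mcm6 and Mcm7 varied together from library to library. For Mcm6, control_HS libraries held 377, 384 and 308 adjusted counts, InRCA_noHS libraries 318, 425 and 392, and InRCA_HS libraries 288, 368 and 302. Mcm7 had 302, 307 and 270.4, then 286, 382 and 355, then 262, 355 and 289.7 in the same order. Mcm2 had 295, 306 and 233, then 284, 328 and 289, then 249.7, 311 and 252. In all 3 genes InRCA_noHS replicate 2 was the highest of the 9 libraries, and the ranges of the groups overlapped. The InRCA_HS against control_HS differences in log2 were −0.16 for Mcm6, 0.04 for Mcm7 and −0.04 for Mcm2, with SEs of 0.18, 0.17 and 0.17 and adjusted p-values of 0.698, 0.941 and 0.938 (limma).

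Mcm5 was spread less within the heated groups than within the unheated one. It stood at 236, 213 and 242 adjusted counts in the control_HS libraries, at 218, 321 and 254 in those of InRCA_noHS and at 226, 209 and 217 in those of InRCA_HS. The InRCA_HS mean was 218 ± 8.65, against 264 ± 52.0 in InRCA_noHS, where replicate 2 held the highest of the 9 values and replicate 3 the next. The log2 difference between InRCA_HS and InRCA_noHS was −0.26 (SE 0.17, 95% interval −0.64 to 0.12, adjusted p = 0.526, limma).

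PCNA, the clamp that holds DNA polymerase on its template and a long-used marker of S phase, was the most variable of the 9 in log2 SD within groups. Libraries of control_HS gave 389, 288 and 203 adjusted counts of mus209, those of InRCA_noHS 245, 307 and 241, and those of InRCA_HS 233, 329 and 266. The control_HS libraries alone spanned the lowest and the highest of the 9 values, and those of the other groups lay between them. Group means were 293 ± 93.1 (control_HS), 264 ± 37.3 (InRCA_noHS) and 276 ± 48.6 (InRCA_HS). The log2 differences were −0.05 for InRCA_HS against control_HS, 0.06 for InRCA_HS against InRCA_noHS and −0.11 for InRCA_noHS against control_HS (SE 0.24 in each). Without control_HS replicate 3 the first was −0.29, and without control_HS replicate 1 it was of the opposite sign, 0.17, with no call in either case.

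CycE encodes the cyclin whose pulses drive each endocycle. Its control_HS libraries had 229, 164 and 174 adjusted counts, its InRCA_noHS libraries 227, 187 and 244, and its InRCA_HS libraries 195, 263 and 225. Control_HS replicate 1 lay within the range of the other groups, and control_HS replicates 2 and 3 lay below all 6 libraries of the transgene cross. The ratio of CycE between InRCA_HS and control_HS was 1.21 (log2 difference 0.27, SE 0.20, 95% interval −0.16 to 0.70, adjusted p = 0.513, limma). In InRCA_noHS against control_HS the log2 difference was 0.22 (SE 0.20, adjusted p = 0.530), and in InRCA_HS against InRCA_noHS it was 0.05 (adjusted p = 0.928). Without control_HS replicate 1 the log2 difference from control_HS was 0.42 in InRCA_HS (adjusted p = 0.220) and 0.36 in InRCA_noHS (adjusted p = 0.238). These were the largest values over the 20 alternative settings listed below. The smallest were 0.16 in InRCA_HS and 0.09 in InRCA_noHS, and none was called.

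E2f had the smallest range of the 9 in log2. Adjusted counts of E2f came to 843, 897 and 947 for control_HS, to 886.5, 748 and 858 for InRCA_noHS, and to 886, 757 and 807 for InRCA_HS, and the 3 groups overlapped. The highest of the 9 libraries was 1.26 times the lowest, and only 0.964% of all genes had a smaller range in log2. The log2 difference between InRCA_HS and control_HS was −0.13 (SE 0.14, 95% interval −0.44 to 0.17, adjusted p = 0.679, limma). E2F1 activity is set largely by its protein level and by the Rbf repressor, neither of which these RNA values measure.

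**Figure D1:**
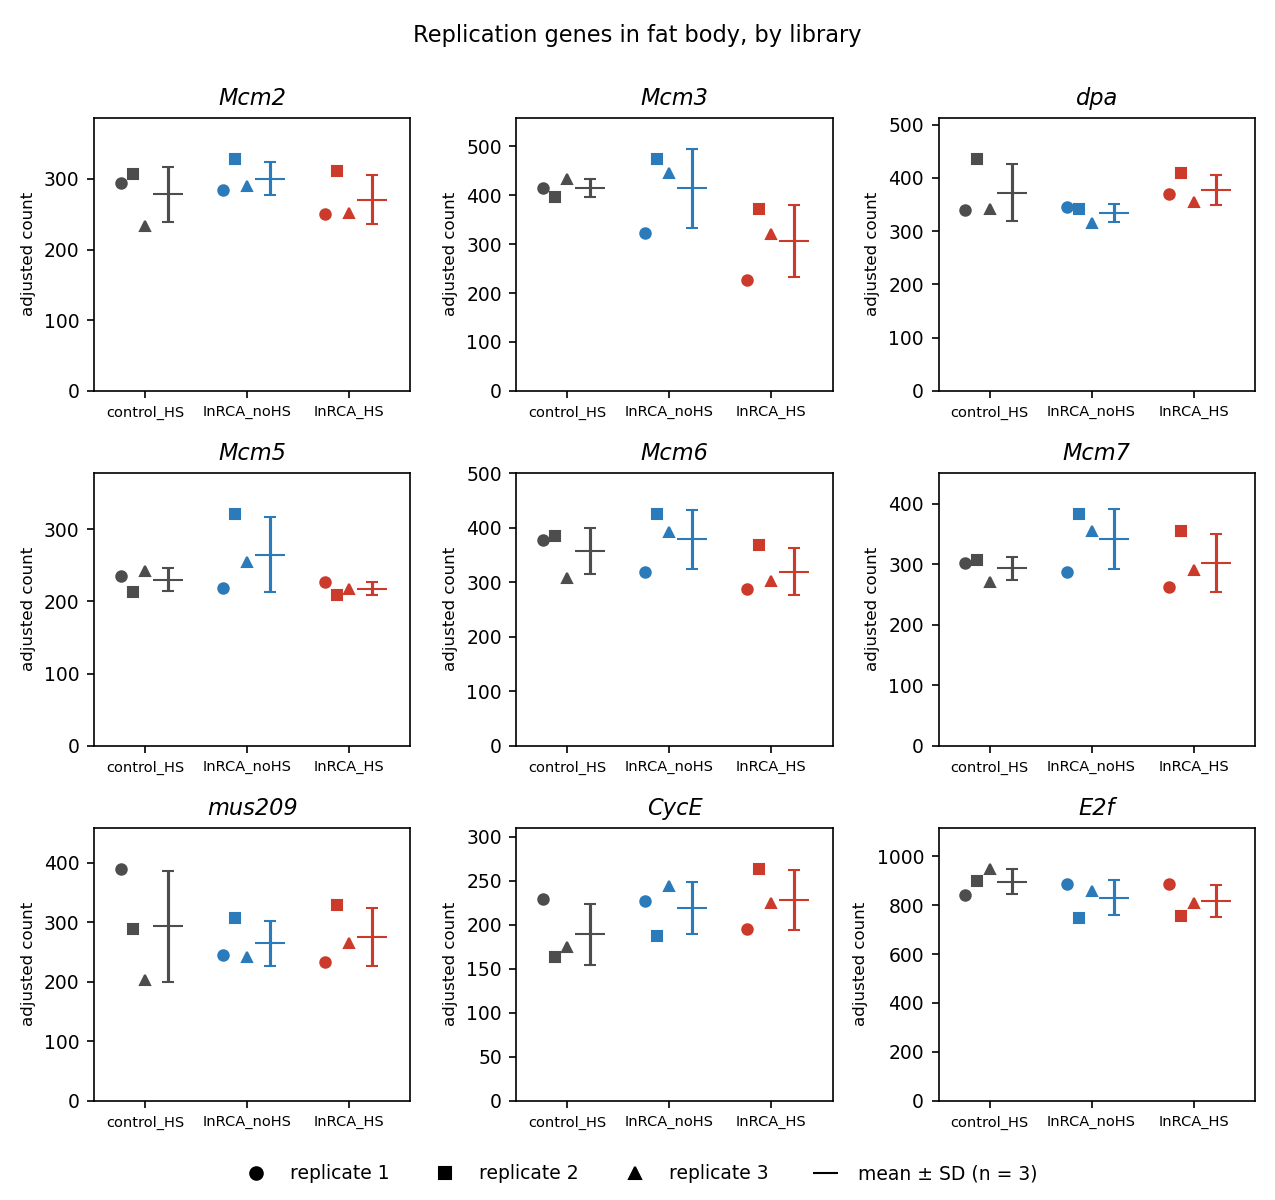
Adjusted counts (vertical axes, starting at 0) of the 9 replication genes in each library of the 3 groups, with the mean and SD of 3 libraries beside the points and a symbol for each replicate number. InRCA_HS lies below control_HS in all libraries for Mcm3, from 227 to 371 against 396 to 434, and the groups overlap in that comparison for the other 8 genes.

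The size of change that these libraries could show differed between the genes. In InRCA_HS against control_HS, a difference had to reach 1.52-fold for E2f and 2.06-fold for mus209 to pass, the other 7 lying between. Over the 9 genes the highest upper bound of a 95% interval was 1.63-fold (CycE), and the lowest lower bound was 0.525 of the control level (Mcm3). In InRCA_HS against InRCA_noHS these bounds were 1.5-fold (mus209) and 0.533 (Mcm3), and in InRCA_noHS against control_HS 1.57-fold (CycE) and 0.642 (mus209). Each interval covers 1 gene and is not adjusted for the number of genes. Differences smaller than those that could pass were not detectable with 3 libraries a group, and missing the threshold does not show that levels were equal.

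**Figure D2:**
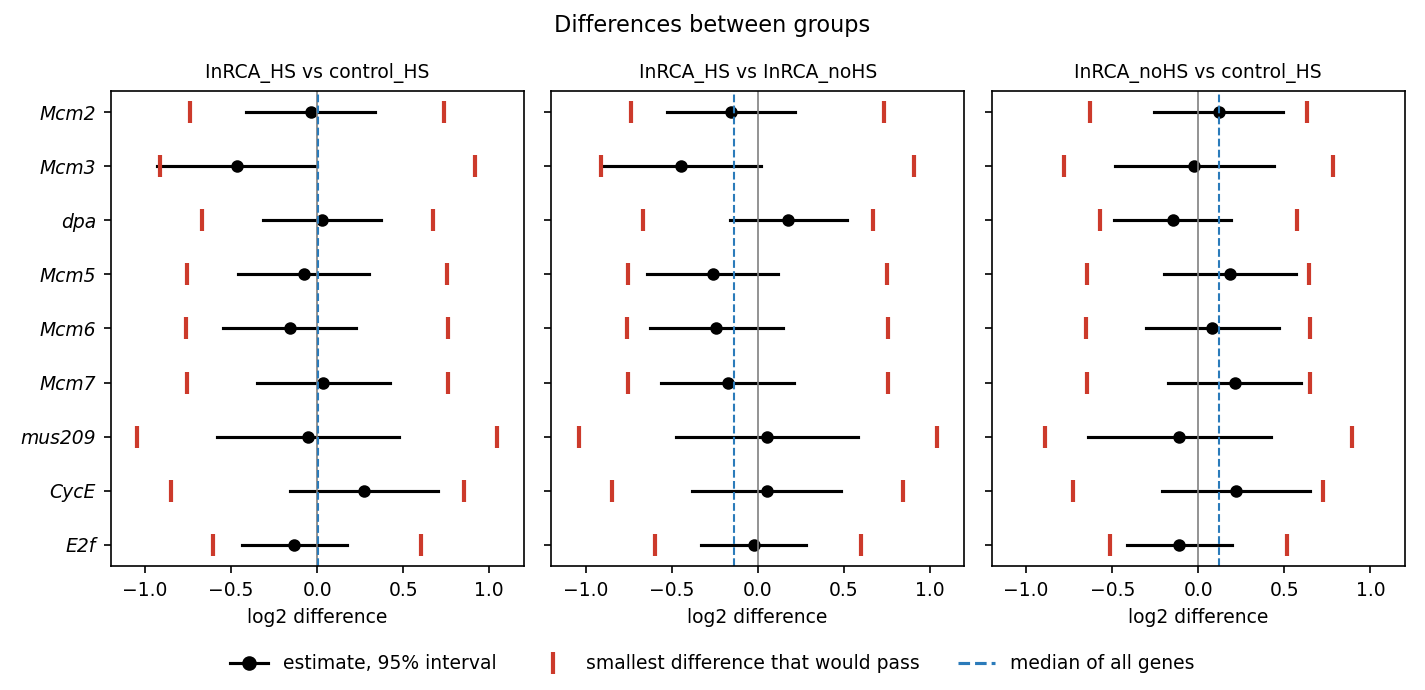
Log2 differences of the 9 genes (horizontal axes) in the 3 comparisons, with 95% intervals as lines, the smallest difference that would have passed the test as red marks, and the median of all genes as a dashed line. No point reaches its marks, and the Mcm3 interval in InRCA_HS against control_HS runs from −0.93 to −0.00135.

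Reads recovered from these values numbered from 107 (CycE) to 1170 (E2f) per gene and library. Recovery was checked for whole numbers only in values up to 100, and the lowest value of the 9 genes was 164 (CycE). Counting error alone, which leaves out PCR duplicates, was 2.92% to 9.67% of a value, and the SD within a group was 3.97% to 31.7% of its mean. Compared with all genes, the range of log2 levels over the 9 libraries was narrow for most of the 9. Only 4.85% of genes had a smaller range than dpa, 6.02% than Mcm2, 9.15% than Mcm7, 10.1% than Mcm6, 14.1% than Mcm5 and 19.1% than CycE. The shares were 38.7% for mus209 and 47.2% for Mcm3. Genes with few reads vary more, and all 9 had mean log2 levels above at least 56.7% of genes.

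Levels of different genes were compared per kilobase of exon. Exon lengths came from the Ensembl annotation of BDGP6, a later build than the dm3 of the study, and 8 of the 9 genes were matched by ID and Mcm3 by symbol. Over all 9 libraries mus209 was highest, at 260 ± 53.4 adjusted counts per kb, and lay above each MCM subunit by more than both SDs. Mcm3 (138 ± 28.1), E2f (131 ± 10.2), Mcm7 (127 ± 17.2), Mcm6 (126 ± 17.2) and dpa (118 ± 12.4) followed, and neighbours among them did not differ beyond their spread. Mcm2 (97.7 ± 11) and Mcm5 (96.8 ± 14.1) were the lowest subunits and lay within 1 SD of each other, and CycE was lowest of all at 42.0 ± 6.63. The 6 subunits thus lay between 96.8 and 138 adjusted counts per kb, with SDs here taken over 9 libraries of 3 groups. In that annotation an antisense RNA on the opposite strand covers 81.7% of the exons of Mcm7, and any use of strand in counting is not given, so reads of both may be joined there. For CycE, E2f and Mcm3 such overlaps are 4.91%, 4.39% and 2.33% of exon length, and the other 5 genes have none.

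Across the 9 libraries Mcm2, Mcm6 and Mcm7, and less closely Mcm3, shared a pattern that cut across the groups. InRCA_noHS replicate 2 was the highest library for 5 of the 6 subunits and InRCA_HS replicate 1 the lowest for 3. The 6 together summed to 1965, 2041 and 1830 adjusted counts for control_HS, to 1775, 2271 and 2051 for InRCA_noHS, and to 1623, 2024 and 1737 for InRCA_HS. The groups overlapped, and within InRCA_noHS the highest and the lowest library differed by more than any pair of group means did. Pearson's r between a subunit and the mean standardized level of the other 5 was 0.95 for Mcm6, 0.86 for Mcm7, 0.81 for Mcm2, 0.62 for Mcm3, 0.36 for Mcm5 and −0.14 for dpa. Spearman's rho was 0.88, 0.88, 0.82, 0.47, 0.00 and −0.43 in the same order. With group means removed, r was 0.95 for Mcm6 and for Mcm7 and 0.27 for dpa. For mus209 against the mean of the 6 subunits r was 0.56, for CycE 0.00 and for E2f −0.59. These values over 9 libraries are descriptions. The points share library depth, normalization and tissue preparation.

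The genes most like the mean MCM pattern over the 9 libraries, with the 9 genes left out, were mRpL17 (a mitochondrial ribosomal protein, r = 0.96), BBS8 (a cilium gene, 0.96) and bora (an activator of Aurora A kinase, 0.94). They were followed by APP-BP1 (a subunit of the NEDD8-activating enzyme, 0.94), CG9689 (0.91) and porin (a mitochondrial membrane channel, 0.89). Then came nesd (0.89), SmG (a spliceosome core protein, 0.88), CG3332 (0.88) and SmD2 (another core protein, 0.88). BBS8 had only 2.28 to 14.3 adjusted counts. None of these 10 was on a list of genes examined here.

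Among other genes of DNA replication and the cell cycle, 61 of 64 listed were in the table, and 0 of the 61 were called in each comparison by limma and by edgeR. At an unadjusted p under 0.05 limma gave 3 genes in InRCA_HS against control_HS, 6 in InRCA_HS against InRCA_noHS and 11 in InRCA_noHS against control_HS, and edgeR 2, 3 and 6. The limma counts are 4.92%, 9.84% and 18% of the 61, below the shares of all genes given above (18.3%, 14.8% and 23.7%). Groups did not overlap for 13.1%, 19.7% and 24.6% of the 61, also below the shares of all genes (20.6%, 23.3% and 27.5%). The median log2 difference was −0.01 in InRCA_HS against control_HS (all genes 0.00), −0.20 in InRCA_HS against InRCA_noHS (all genes −0.14) and 0.17 in InRCA_noHS against control_HS (all genes 0.12). The medians of the 9 genes were −0.05, −0.16 and 0.08. TMM scaling, which matches libraries by their typical gene, moved the median of all genes to −0.02 and 0.00 in the latter 2 comparisons, so small negative or positive values there depend on the scaling.

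Origin recognition and licensing precedes MCM loading. For its 8 genes in the table the median log2 difference was 0.06 in InRCA_HS against control_HS. Geminin (geminin), the inhibitor of the MCM loader Cdt1, averaged 78.3 ± 18.7 adjusted counts with control_HS, 134 ± 19.1 with InRCA_noHS and 114 ± 22.8 with InRCA_HS. The log2 difference between InRCA_noHS and control_HS was 0.78 (SE 0.24, adjusted p = 0.0764, limma), without overlap between those groups. Orc4, a subunit of the origin recognition complex, differed by 0.61 in the same comparison (SE 0.20, adjusted p = 0.0951), and its groups did not overlap either. Of the 8 genes, 37.5% had groups that did not overlap there, against 27.5% of all genes.

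Of the 9 origin firing genes, which turn a loaded MCM ring into an active helicase, l(1)G0148 and chif had the smallest p. The gene l(1)G0148, which encodes the Cdc7 kinase that phosphorylates MCM subunits, had 355, 286 and 271 adjusted counts in the control_HS libraries, 268, 206 and 287 in those of InRCA_noHS, and 169, 190.2 and 219 in those of InRCA_HS. Its InRCA_HS libraries all lay below control_HS (log2 difference −0.65, SE 0.19, adjusted p = 0.0958, limma). The gene of its activating subunit, chif, had 483, 408 and 488 in the control_HS libraries, 714, 628 and 694 in those of InRCA_noHS, and 583, 423 and 520.4 in those of InRCA_HS. Its InRCA_noHS libraries lay above the other 6 (log2 difference from control_HS 0.56, SE 0.16, adjusted p = 0.0602, and of InRCA_HS from InRCA_noHS −0.43, adjusted p = 0.241). Another gene on the same strand overlaps 19.5% of the chif exons. In InRCA_HS against control_HS, 33.3% of the 9 origin firing genes had groups that did not overlap, against 20.6% of all genes. In InRCA_noHS against control_HS the shares were 33.3% and 27.5%, and in InRCA_HS against InRCA_noHS 11.1% and 23.3%.

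Among 14 fork proteins (polymerases, primase, clamp loader, ligase) the log2 differences in InRCA_HS against control_HS ran from −0.27 to 0.28. The clamp loader genes Gnf1 and RfC4 had the smallest p, and their log2 differences between InRCA_HS and InRCA_noHS were −0.42 (adjusted p = 0.265) and −0.44 (adjusted p = 0.412). For the 5 genes of nucleotide supply, RnrL, the large subunit of ribonucleotide reductase, differed by 0.31 in InRCA_noHS against control_HS (adjusted p = 0.317). In the 10 regulators of G1 to S and of the endocycle, dap, the inhibitor of cyclin E-Cdk2, had means of 152 ± 13.9, 229 ± 66.5 and 219 ± 47.5 in control_HS, InRCA_noHS and InRCA_HS. The InRCA_HS libraries of dap lay above those of control_HS (log2 difference 0.51, SE 0.25, adjusted p = 0.305). Groups did not overlap in that comparison for 20% of the 10 regulators, against 20.6% of all genes. For cdc2c, the Cdk2 kinase itself, the largest difference was 0.45 in InRCA_noHS against control_HS (adjusted p = 0.223), and a gene on the opposite strand overlaps 43.9% of its exons.

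Mitosis genes, which act in dividing cells, had the median farthest from 0 of the cell cycle lists in InRCA_HS against InRCA_noHS. Nucleotide supply came next, with a median of −0.29, or −0.15 relative to that of all genes. All 5 of its genes were below 0, and their libraries overlapped. Of 15 mitosis genes, 14 were below 0 in InRCA_HS against InRCA_noHS, and the libraries of 7 did not overlap, 46.7% against 15.8% of all genes in that direction. Their median was −0.33, which relative to that of all genes was −0.19, and 0 were called. This relative median lay between −0.26 and −0.11 over the 20 alternative settings, of which a higher filter kept 14 of the 15 genes, and the value nearest 0 came without InRCA_noHS replicate 2. In InRCA_noHS against control_HS 14 of the 15 were above 0, and the libraries of 5 did not overlap, 33.3% against 17.2% of all genes in that direction. The relative median there was 0.12, but 0.04 without InRCA_noHS replicate 2 and 0.27 without control_HS replicate 1. CycB, a mitotic cyclin, averaged 329.8 ± 56.3 (control_HS), 482 ± 71.6 (InRCA_noHS) and 329 ± 48.2 (InRCA_HS) adjusted counts, with adjusted p = 0.188 for InRCA_HS against InRCA_noHS. For the Aurora A kinase gene aur the log2 difference was −0.63 (SE 0.20, adjusted p = 0.153). Summed mitosis counts were 2854 to 3748 in control_HS, 3397 to 4464 in InRCA_noHS and 2960 to 3140 in InRCA_HS. Over the 9 libraries, r with the mean MCM level had a median of 0.54 for mitosis genes, 0.56 for nucleotide supply, 0.39 for fork proteins, 0.18 for G1 to S and endocycle regulators, 0.08 for licensing and −0.09 for origin firing, beside 0.08 for all genes. Single genes varied within lists, from 0.09 to 0.81 for mitosis and from −0.80 to 0.50 for G1 to S and endocycle regulators. The −0.80 was that of SuUR, and another gene on the same strand overlaps 100% of its exons.

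Markers of tissues with dividing cells had log2 differences of the same sign as most mitosis genes. Of the 7 disc and nervous system markers in the table, 7 were below 0 in InRCA_HS against InRCA_noHS and 7 above 0 in InRCA_noHS against control_HS. In either, 0 were called, against 2.55% and 7.03% of all genes. The medians were −0.53 (all genes −0.14) and 0.39 (all genes 0.12). In the first, the libraries of 3 did not overlap, 42.9% against 15.8% of all genes in that direction. In the second, those of 2 did not, 28.6% against 17.2%. Their summed counts were 1199 to 1462 in control_HS, 1642 to 1976 in InRCA_noHS and 1213 to 1440 in InRCA_HS, and the InRCA_noHS range did not overlap the others. InRCA_noHS replicate 2, the library with the most MCM and mitosis counts, had the most of these marker counts too. The table holds no value of 0 for any gene. The markers vg, wg and dpn (wing disc, disc signalling and neuroblasts) were at 60.5 to 102, 74.5 to 167 and 25.4 to 70.9 adjusted counts. The 2 germ line markers summed to only 8 to 29. The 4 hemocyte markers summed to 3155 to 5723 in control_HS, 2355 to 2920 in InRCA_noHS and 2843 to 5814 in InRCA_HS. Their mean sum was lowest in InRCA_noHS, where the disc markers were highest, but its range overlapped that of InRCA_HS. Within InRCA_noHS, replicate 2 had the most counts of both marker sets. The hemocyte marker He was not lowest in InRCA_noHS, with a mean of 131.5 against 128.6 in control_HS. The part of other tissues in the replication and mitosis values was not tested.

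**Figure D3:**
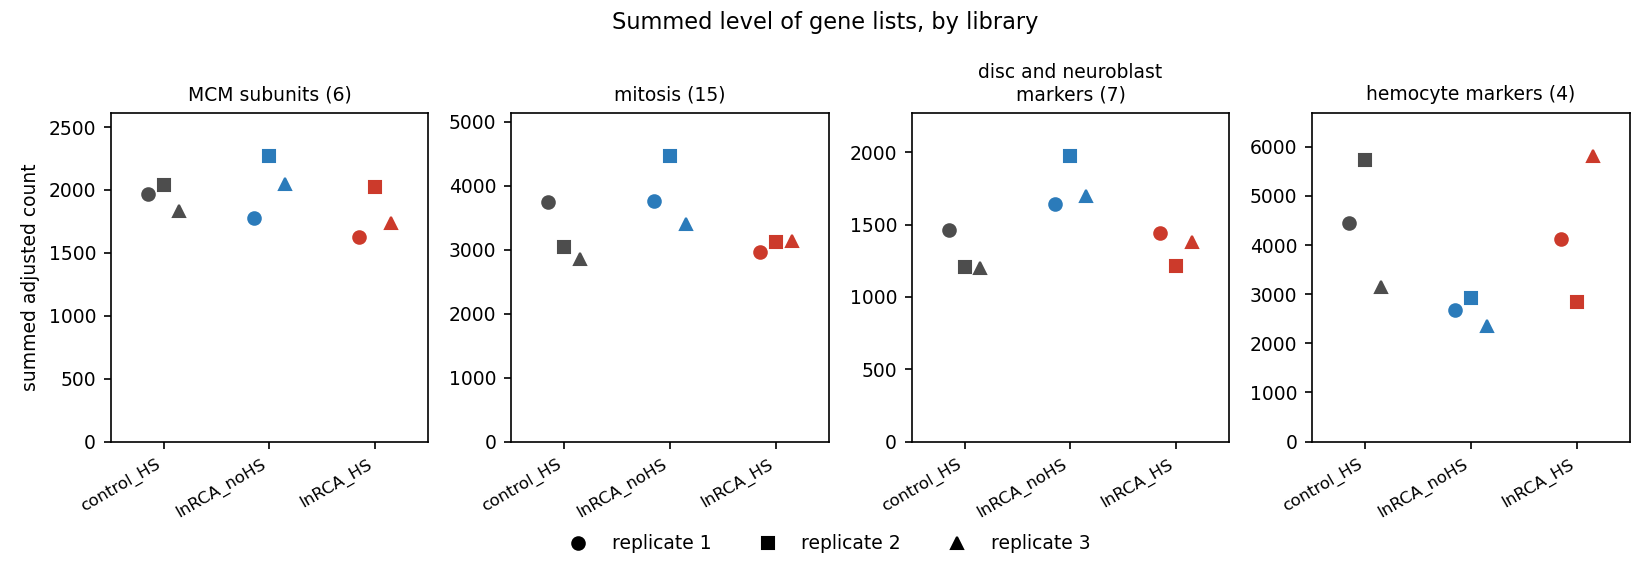
Summed adjusted counts per library (vertical axes, starting at 0) of the 6 MCM genes, 15 mitosis genes, 7 disc and nervous system markers and 4 hemocyte markers, with a symbol for each replicate number. InRCA_noHS replicate 2 is the highest library in the first 3 panels, at 2271, 4464 and 1976.

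Salivary gland cells endoreplicate too, and their glue protein genes (Sgs3, Sgs4, Sgs5, Sgs7 and Sgs8) were the markers of them. The 5 genes summed to 11561 to 34956 adjusted counts in control_HS, 29182 to 93484 in InRCA_noHS and 53239 to 171361 in InRCA_HS. Of the 5, Sgs5 alone passed in InRCA_HS against control_HS (adjusted p = 0.000706, limma) and in InRCA_noHS against control_HS (adjusted p = 0.00134). The shares of all genes called there were 2.43% and 7.03%. All 5 were above 0 in both comparisons, with median log2 differences of 2.2 and 1.53. In the first, the libraries of 4 did not overlap, 80% against 20.6% of all genes. In the second, those of 1 did not, 20% against 27.5%. The part of these 5 markers in the values of the 9 genes was not tested. The r of the 5 with the mean MCM level ran from −0.34 to −0.07.

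**Figure D4:**
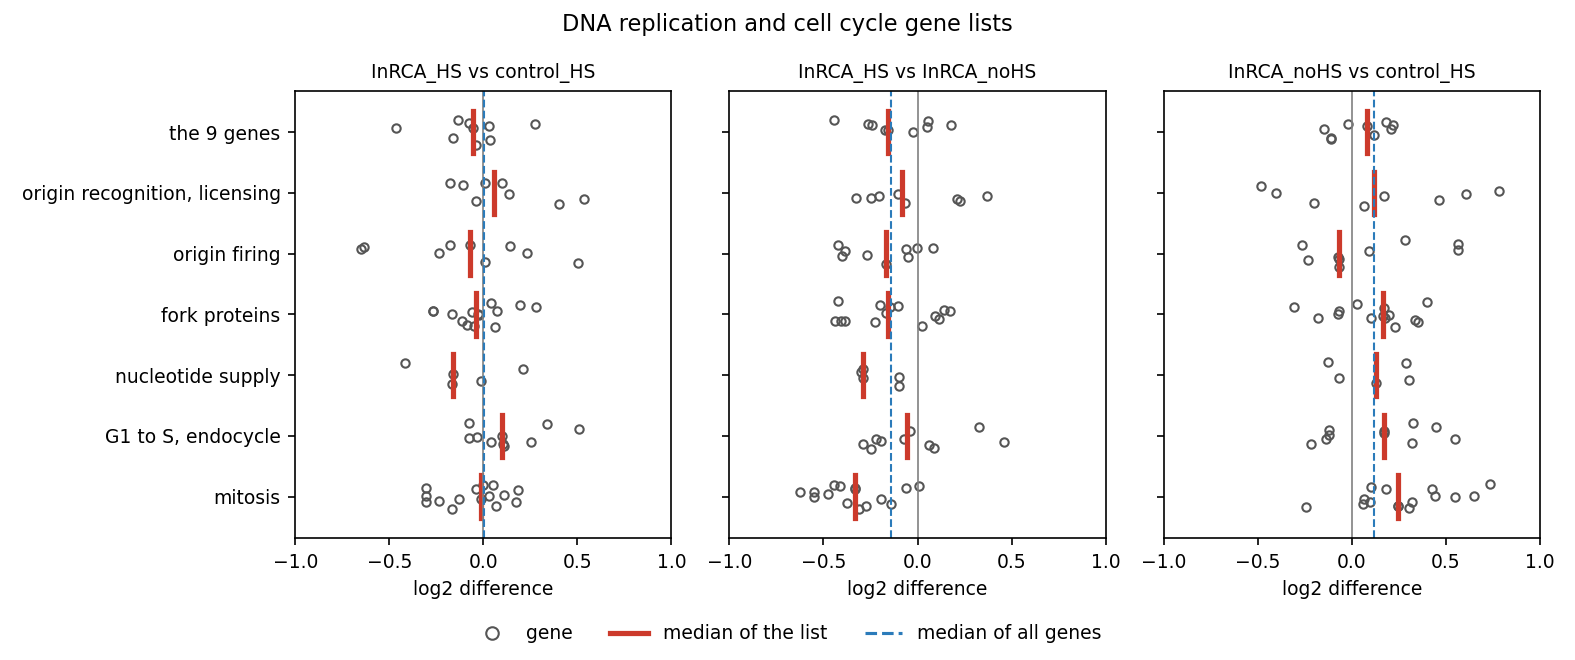
Log2 differences of single genes (points) for the 9 replication genes and 6 other lists in the 3 comparisons, with list medians as red bars and the median of all genes as a dashed line. The median of mitosis genes lies at −0.33 in InRCA_HS against InRCA_noHS, where the median of all genes is −0.14.

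Leaving out control_HS replicate 1 changed calls among the other genes. Without it, 0 of the 9 genes were called in any comparison, and 4 of the 61 other genes passed as higher in InRCA_noHS than in control_HS by limma, 6.56% of them against 6.57% of all genes in that fit. They were geminin (log2 difference 0.96, adjusted p = 0.0273), mad2 (1.04, adjusted p = 0.0301), CycB (0.68, adjusted p = 0.0353) and chif (0.60, adjusted p = 0.0479). The spindle checkpoint gene mad2 had 52.4 adjusted counts in the library left out and 26.9 and 28.3 in the other control_HS libraries. Over all libraries its log2 difference was 0.74 (adjusted p = 0.163, limma).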

How the data were processed

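Each gene and library has 1 deposited value with decimals, a signal on the scale of read counts. The values show that the authors had adjusted counts between libraries, with a tool that no source used here names. Per the submitters' processing notes, the tools included TopHat 1.3.2, Bowtie 0.12.7 and Cufflinks 1.1.0, with the build dm3 and no role stated for any. Nor do they give the counter, annotation or filters. Of 93348 values, 0 were equal to 0. Undoing a negative binomial quantile adjustment (dispersion 0.0718, 1 factor per library) gave whole reads, within 0.1, for 98.9% of the 38615 values up to 100. In InRCA_noHS replicate 1 this share was 90.4%. The lowest recovered count was 1, so genes without reads in some library were not analysed here.

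Groups came from sample titles. A single limma 3.58.1 fit in R 4.3.3 held all 9 libraries and 3 group means on log2(value + 1), with an intensity trend. The filter, a mean of at least 1, removed 0 genes. The scale understates changes of low genes. The edgeR 4.0.16 test on recovered reads was chosen after seeing the data. Figures used matplotlib 3.10.9.

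The 9 genes, the lists and the tests were chosen with earlier results of these data known. Named other genes are the 2 of smallest p in each list, with mad2 named because an alternative called it and SuUR for its r with the mean MCM level. One gene that this rule takes is not reported here. No sequences were analysed here.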

Additional observations from a re-analysis of the deposited data

How the results depend on the processing

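The call of 0 of the 9 genes held in all 3 comparisons under all 20 alternatives (pseudocounts of 0.1 and 5, no filter, a mean of at least 20, TMM scaling, quantile normalization, no intensity trend, array quality weights, only the 6 libraries compared, the replicate block, each of 9 libraries left out, and edgeR). Of 540 such values, 0 were called and 37 differed in sign from the value reported. Many of the 540 could not differ in sign. Using no filter gave the reported fit again, because the filter removed 0 genes. The mean of at least 20, no intensity trend, only the 6 libraries compared and the replicate block changed no log2 difference. Neither did leaving out a library of the group not compared. The most sign changes for a gene were 7 of 20 (E2f, InRCA_HS against InRCA_noHS). The smallest adjusted p was 0.136 (Mcm3, InRCA_HS against control_HS, array quality weights). TMM scaling moved the median of all genes from −0.14 to −0.02 in InRCA_HS against InRCA_noHS and from 0.12 to 0.00 in InRCA_noHS against control_HS. It took the share of higher calls there from 68.7% to 80.1% and from 46.2% to 28.9%. Relative to the median of all genes, mitosis genes lay between −0.26 and −0.11 in InRCA_HS against InRCA_noHS over the 20 alternatives.

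Counts of other genes moved more. Array quality weights called 4 of the 61 other replication and cell cycle genes as higher in InRCA_noHS than in control_HS, 6.56% against 7.15% of all genes in that fit. They were the same 4 as without control_HS replicate 1, and fits without 1 library gave 0 to 4. Of all genes, 252 were called in InRCA_HS against control_HS, 265 in InRCA_HS against InRCA_noHS and 729 in the third comparison. Without an intensity trend these were 90, 145 and 446, and with array quality weights the first and the third were 900 and 1446. The fit of only 6 libraries gave 56 for the first. Without 1 library they ran from 56 (without InRCA_HS replicate 1) to 961, from 106 (without InRCA_noHS replicate 2 or 3) to 336 and from 267 (without control_HS replicate 2) to 1421, and each highest count came without control_HS replicate 1. The causes were not tested.

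With the replicate block 186, 186 and 551 genes were called, 0 of them among the 9. Deviations of same-numbered libraries correlated by −0.24 to 0.12. Libraries with unlike numbers were not compared in this way, so whether same-numbered libraries share a day or batch was not tested. Intervals and counting errors cover 3 libraries a group and 107 to 1170 recovered reads a gene.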
